A study of Homo sapiens with 34 samples.

Results

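The CD43- fraction of differentiating human embryonic stem cell cultures was compared between day 12 and day 9, over the 3 day 12 and the 3 day 9 samples of that fraction, 6 of the 34 samples of the series, and over all 20255 genes of the expression table. The H1 line of human embryonic stem cells was made into embryoid bodies that attached to collagen IV in the presence of BMP4 and VEGF and were then kept with VEGF as the sole added growth factor, without added blood cytokines. Live cells were sorted by surface CD43, and both days and both populations came from that 1 line under the same stated treatment. The labels set the groups apart by day alone, while the sequencing company of each sample was not given in the sources used here. The CD43+ cells sorted on the same days, 3 samples a day, served for comparison. Every population used here was prepared as 3 independent biological replicates, and the sorted cells were a mixture defined by the absence of 1 surface protein.

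CD43 (leukosialin, encoded by SPN) is a sialylated glycoprotein that appears on the first blood cells as they leave haemogenic endothelium, the specialised vessel lining that gives rise to blood. The CD43- fraction therefore holds the cells from which blood arises and the surrounding tissue, of which the paper names endothelial and mesenchymal cells. Genes of smooth muscle, cardiac muscle, secreted endoderm products and epithelium were present in the fraction as well. In the embryo such tissue supplies adhesion sites and growth factors to the blood cells beside it.

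Values were GC-normalised tag counts that the authors forced to the same distribution in every sample. Each of the 34 columns held the same set of values, with a sum of 17856940, a median of 197, 1292 zeros and a ceiling of 90700 shared by 10 genes, so sequencing depth was unknown and no counting interval could be given. Repeated high values such as 90700, 48030 and 37166 in different genes or samples are shared ranks, and changes among the most abundant genes are coarse. Changes are differences of mean log2(value + 1), which understate the change of low genes. A gene was called when limma's adjusted p was below 0.05 and the change was over 4-fold, and the test covered the 16540 genes that reached 10 in 3 or more of the 6 samples.

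SPN, the gene of the gate marker, was higher in all 3 day 12 CD43- replicates, whereas PTPRC, not part of that gate, was uneven among them. SPN had values of 18, 32 and 19 in the day 9 CD43- replicates 1, 2 and 3 and of 122, 120 and 235 on day 12, against 4458, 7132 and 6791 in the day 12 CD43+ cells. The SPN groups in CD43- cells did not overlap and SPN rose by 2.71 ± 0.41 (log2 change ± SE, limma adjusted p = 0.013, n = 3 a day). PTPRC, the pan-leukocyte phosphatase CD45, stood at 4, 2 and 4 on day 9 and at 4, 197 and 371 on day 12, so that day 12 replicate 1 lay within the day 9 range and replicates 2 and 3 lay above it. PTPRC was not tested because only 2 samples reached a value of 10.

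Markers of the non-blood tissue were present in all 6 samples. COL1A1, the main chain of collagen I, was at 48030 or 90700, and COL3A1, the chain of collagen III, at 90700 in every sample. PECAM1, an adhesion protein of endothelium, lay between 3542 and 7776 on day 9 and between 4786 and 6820 on day 12, and the groups overlapped. KDR, the main VEGF receptor of endothelium, lay between 22812 and 37166 on day 9 and between 13311 and 29000 on day 12. Neither gene passed the test (limma adjusted p = 0.72 and 0.24). In bulk samples, fewer cells of a type and less RNA per cell cannot be told apart, and this holds for every marker below.

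**Figure D1:**
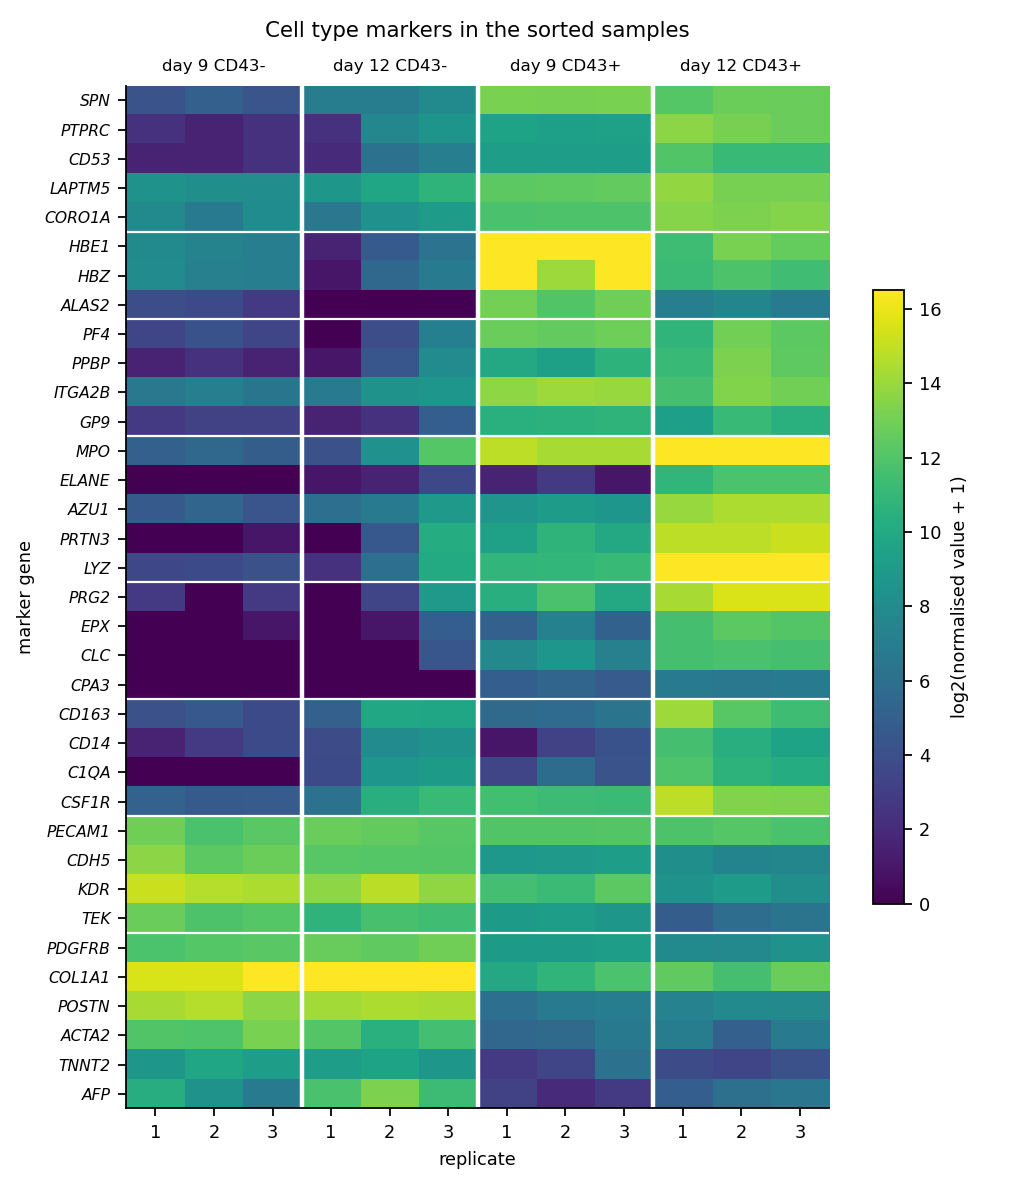
Heatmap of log2(normalised value + 1) of 35 cell type markers (rows, in blocks from top to bottom: pan-leukocyte, erythroid, megakaryocyte, neutrophil, eosinophil and mast cell, macrophage, endothelial, other CD43- tissue) in each of 3 replicates of the day 9 and day 12 CD43- and CD43+ cells (columns). Macrophage and neutrophil markers are dark in the day 9 CD43- columns and in day 12 CD43- replicate 1 and brighten in replicates 2 and 3, as PTPRC does from 4 to 197 and 371.

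Between day 9 and day 12, 656 genes were called in the CD43- cells, which is 3.97% of those tested. Of these, 446 were higher on day 12 (2.7%) and 210 lower (1.27%). Without day 12 replicate 1 the split turned, to 281 higher and 370 lower of 651 calls, of which 353 were among the 656. That fit could not test the 251 rises whose day 9 values were all below 10, because too few samples reached 10. The filter removed rises alone from the 656, so the turned split cannot be read as an effect of replicate 1 alone. The adjusted p alone was below 0.05 for 1819 genes and the unadjusted p for 5287 genes, and the median change over all tested genes was -0.07. The 3 day 12 values lay entirely above the 3 day 9 values in 2663 genes (16.1%) and entirely below them in 3410 genes (20.6%). The other 3715 genes of the table were too low to test.

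In the fit of the 2 populations, the number of calls rested on single libraries. It was 2 without day 12 replicate 3, 15 without day 12 replicate 2, 178 without day 9 replicate 1 (166 higher) and 199 without day 9 replicate 3 (185 higher). The 2 were MTRNR2L10 and C12orf50, so nearly all calls described below were lost in the fits without day 12 replicate 2 or 3. The day 9 and day 12 values did not overlap in any of the 656 genes. Leaving out a replicate therefore could not reverse the sign of a change, and the signs give no further support. In 1 fit over all 33 replicated samples, which pools the spread of 11 populations, 1450 genes were called, 645 of the 656 among them, and 1334 without day 12 replicate 3.

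Many of the rises started from nothing. All 3 day 9 values were below 10 in 251 of the 446 genes, which therefore entered the test only through day 12, and 45 were listed at 0 in all 3 day 9 samples. Conversely, all 3 day 12 values were below 10 in 111 of the 210 falls.

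Replicates were farther apart in the day 12 CD43- cells than in any of the other 10 replicated populations. The median SD over 3 replicates was 0.336 on the log2 scale, against 0.227 for the day 9 CD43- cells and 0.108 to 0.252 for all others. An SD above 1 was found in 1551 genes (9.38%) on day 12 and in 755 genes (4.56%) on day 9. Pearson correlations between replicates, across genes, were 0.935 to 0.958 on day 12 and 0.962 to 0.984 on day 9. The SD was the larger on day 12 in 67.5% of the tested genes. No test was made of this difference, since the genes of a sample are not independent.

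The pair of day 12 replicates that differed most was 1 and 2, with 844 genes over 4-fold apart, followed by 1 and 3 with 664 and 2 and 3 with 494, whereas the day 9 pairs had 98 to 447 such genes. Blood-enriched genes were defined as those over 4-fold higher in CD43+ than in CD43- cells on day 6 or day 16, sorts that took no part in the comparison. The day 16 cells were sorted by CD43 and CD45 together, as CD43-CD45- and CD43+/CD45+ cells, so that day and gate cannot be told apart in any value of day 16. They were 9.49% of the tested genes. Of the 348 genes over 4-fold higher in day 12 replicate 3 than in replicate 1, 190 (54.6%) were blood-enriched, whereas of the 316 genes over 4-fold higher in replicate 1, 34 (10.8%) were. Between replicates 1 and 2 the shares were less far apart. Of the 394 genes over 4-fold higher in replicate 2, 129 (32.7%) were blood-enriched, and of the 450 higher in replicate 1, 102 (22.7%) were. The median SD of the blood-enriched genes was 0.409 on day 9 and 0.645 on day 12. Genes in neither the blood-enriched nor the CD43- enriched class also had the larger SD on day 12 in 69.9% of cases, with a median SD of 0.187 on day 9 and 0.288 on day 12.

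**Figure D2:**
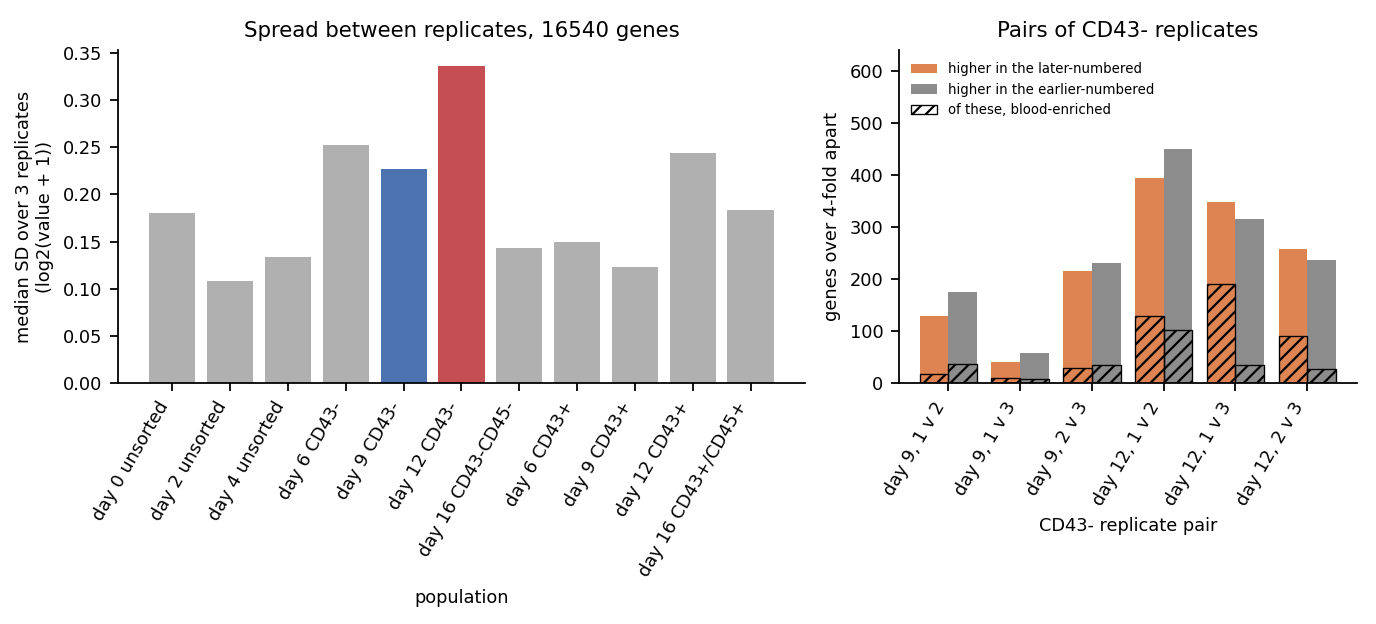
Left, the median SD of log2(value + 1) over 3 replicates (bars, from 0) for the 11 replicated populations, with day 12 CD43- in red at 0.336 and day 9 CD43- in blue at 0.227. Right, the number of genes over 4-fold apart in each pair of CD43- replicates, split by which replicate was higher, with the blood-enriched share hatched (190 of 348 genes higher in day 12 replicate 3 than in replicate 1).

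The genes with the largest SD in the day 12 CD43- cells, among those with a mean log2 value of at least 5, were nearly all genes of white blood cells. MPO, the peroxidase of neutrophil granules, had values of 16, 324 and 4608 in replicates 1, 2 and 3 (SD 4.04 on the log2 scale) against 32, 46 and 28 on day 9. LYZ, lysozyme, had values of 4, 64 and 1089 against 11, 12 and 16. SPI1, the transcription factor PU.1 of myeloid cells, had values of 3, 203 and 486 against 12, 6 and 4. In each of these genes replicate 1 lay below the day 9 values and replicates 2 and 3 lay above them.

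Replicate 1 was likewise the lowest and replicate 3 the highest in SRGN, the granule proteoglycan serglycin (8, 346 and 1140), PLEK, a platelet and leukocyte protein kinase C substrate (1, 66 and 293), and NCF4 (1, 153 and 340) and CYBB (6, 409 and 680), both parts of the phagocyte oxidase. The remaining genes chosen in this way were F13A1, S100B and VCAN-AS1, an antisense transcript of the versican gene, at 0, 192 and 415. None of these genes except F13A1 passed the test between days: the adjusted p of limma was 0.27 for MPO, 0.37 for LYZ, 0.22 for SPI1, 0.15 for SRGN and 0.59 for PLEK, and NCF4, CYBB, S100B and VCAN-AS1 were too low in too many samples to be tested.

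Over the 8 lists of blood genes, holding 130 genes, day 12 replicate 1 was the lowest of the 3 replicates in 84 genes and replicate 3 the highest in 104. A value of at least 10 was reached by 47, 76 and 96 of these genes in day 12 replicates 1, 2 and 3 and by 57, 54 and 55 in the day 9 replicates. Set against the mean of the day 12 CD43+ cells, the median blood gene stood at 0.142% of that level in replicate 1, at 1.99% in replicate 2 and at 5.02% in replicate 3, over the 110 genes with a CD43+ mean of at least 100. Day 12 replicate 1 thus had fewer detected blood genes than any day 9 sample, and replicates 2 and 3 more than any. Of the 130 genes, 63 could be tested, 8 were called higher (2.7% of all tested genes were) and 1 lower. Among the 8, C1QA, C1QB, C1QC, S100A9 and CXCR2 entered the test only through their day 12 values. The count is therefore no measure of a rise of blood genes as a group.

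Macrophage genes were among the rises. The 19 genes of the macrophage list summed to 2118, 728 and 1113 on day 9, of which MRC1, a mannose receptor that liver and lymphatic endothelium also carry, contributed 1986, 557 and 1027. On day 12 the 19 genes summed to 459, 7209 and 9646, which was 0.638%, 10.03% and 13.4% of the sum in day 12 CD43+ cells. The sum of 459 leaves MRC1 below each of its day 9 values in day 12 replicate 1. Of the 19 genes, 9 could be tested, 3 were called higher (2.7% of all tested genes were) and none lower, and the 3 entered the test only through their day 12 values. Among the 9, 8 had a higher mean on day 12 and 1 a lower mean. The 3 called genes were C1QA, C1QB and C1QC, which lie side by side on chromosome 1 (C1QA at 22636506 to 22639608, C1QC at 22643630 to 22648110 and C1QB at 22652762 to 22661538, GRCh38) and encode the chains of complement C1q, a macrophage product.

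All 3 C1Q genes were listed at 0 in every day 9 CD43- sample, so no fold is given. On day 12 C1QA had values of 12, 410 and 502, C1QB of 14, 364 and 560 and C1QC of 37, 742 and 1140 (limma adjusted p = 0.022, 0.020 and 0.012). The day 12 CD43+ cells had C1QA at 3984, 1600 and 1178 and C1QC at 14009, 3720 and 2981, so the replicate with the least C1Q among the CD43- samples carried the same number as the one with the most among the CD43+ samples. F13A1, the A chain of coagulation factor XIII made by macrophages and megakaryocytes, rose from 6, 2 and 2 to 40, 2931 and 3240 (change 7.52 ± 1.59, adjusted p = 0.031).

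The macrophage markers CD163, CSF1R and CD14 followed the C1Q genes by replicate without passing the test. CD163, a scavenger receptor for haemoglobin, had values of 16, 22 and 12 on day 9 and of 32, 936 and 838 on day 12 (limma adjusted p = 0.068). CSF1R, the receptor of macrophage colony-stimulating factor, had values of 36, 24 and 26 and then of 71, 1379 and 2314 (adjusted p = 0.056). CD14, the co-receptor for bacterial lipopolysaccharide, had values of 2, 6 and 12 and then of 13, 249 and 337 (adjusted p = 0.072). In all of these, even day 12 replicate 1 lay above the 3 day 9 values, and replicates 2 and 3 were far above replicate 1. All 3 day 12 values lay above the day 9 values in 16.1% of all tested genes.

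A smaller part of the neutrophil list could be tested, 8 of 28 genes against 9 of 19 of the macrophage list. The 28 genes of the list summed to 495, 973 and 484 on day 9 and to 815, 2808 and 11492 on day 12, which was 0.225%, 0.776% and 3.18% of the sum in CD43+ cells. Of the 8 genes, 3 were called higher (2.7% of all tested genes were) and none lower, and of these S100A9 and CXCR2 entered the test only through their day 12 values. S100A9, a calcium-binding protein abundant in neutrophils and monocytes, rose from 2, 2 and 6 to 38, 380 and 845 (change 5.87 ± 1.08, adjusted p = 0.022). CSF3R, the receptor of granulocyte colony-stimulating factor, rose from 54, 94 and 34 to 334, 675 and 798 (3.32 ± 0.46, adjusted p = 0.011). CXCR2, a chemokine receptor, rose from 3, 2 and 1 to 14, 10 and 16 (2.29 ± 0.45, adjusted p = 0.025).

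CSF3R and CXCR2 differed from the macrophage genes in that replicate 1 was within 3-fold of the others. Of the azurophil granule genes, PRTN3, proteinase 3, stood at 0, 22 and 1172, and AZU1, azurocidin, at 63, 116 and 495 against 25, 40 and 19 on day 9 (adjusted p = 0.069). The eosinophil and mast cell list of 14 genes summed to 16, 16 and 20 on day 9 and to 3, 36 and 691 on day 12, and no member could be tested. PRG2, the major basic protein of eosinophils, stood at 0, 10 and 473 on day 12, EPX, eosinophil peroxidase, at 0, 1 and 30, and CPA3, a mast cell protease, at 0 in all 6 samples.

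Summed haemoglobin values were lower on day 12, without overlap between days. The 10 genes summed to 893, 572 and 459 on day 9 and to 9, 139 and 379 on day 12, against a mean sum of 259130 and 18230 in the CD43+ cells of those days. Of the 10 genes, 5 could be tested and 1 was called lower (1.27% of all tested genes were). HBA2, an alpha globin, was called and fell from 36, 30 and 10 to 6, 0 and 0 (change -3.61 ± 0.88, limma adjusted p = 0.044), but HBA1 is a near-identical copy and reads may have been split between the pair. HBA2 also entered the test only through its day 9 values. HBE1, the embryonic epsilon globin, had values of 238, 164 and 130 and then of 2, 25 and 78 (adjusted p = 0.092), and HBZ, the embryonic zeta globin, of 244, 144 and 131 and then of 1, 46 and 111 (adjusted p = 0.18). The 15 genes of the erythroid list, which holds no haemoglobin, summed to 732, 844 and 636 on day 9 and to 651, 945 and 1040 on day 12, with overlap between days. Of these, 5 could be tested and none was called by limma, with 1 at an unadjusted p below 0.05. Its member ALAS2, the red cell enzyme of haem synthesis, was listed at 0 in all 3 day 12 CD43- samples.

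Of 16 megakaryocyte genes, 13 could be tested, 1 was called higher (2.7% of all tested genes were) and none lower. On day 12 the 16 genes summed to 2692, 1875 and 3415, the least in replicate 2, although replicate 1 was the lowest in 11 of the 16 genes. RAB27B, which serves granule release in platelets and in secretory cells, rose from 14, 14 and 10 to 54, 46 and 253 (2.68 ± 0.66, adjusted p = 0.045), and PF4, platelet factor 4, stood at 0, 14 and 136 on day 12 against 10, 17 and 10. The blood transcription factors (8 of 10 tested) had no gene called by limma, and 4 at an unadjusted p below 0.05.

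**Figure D3:**
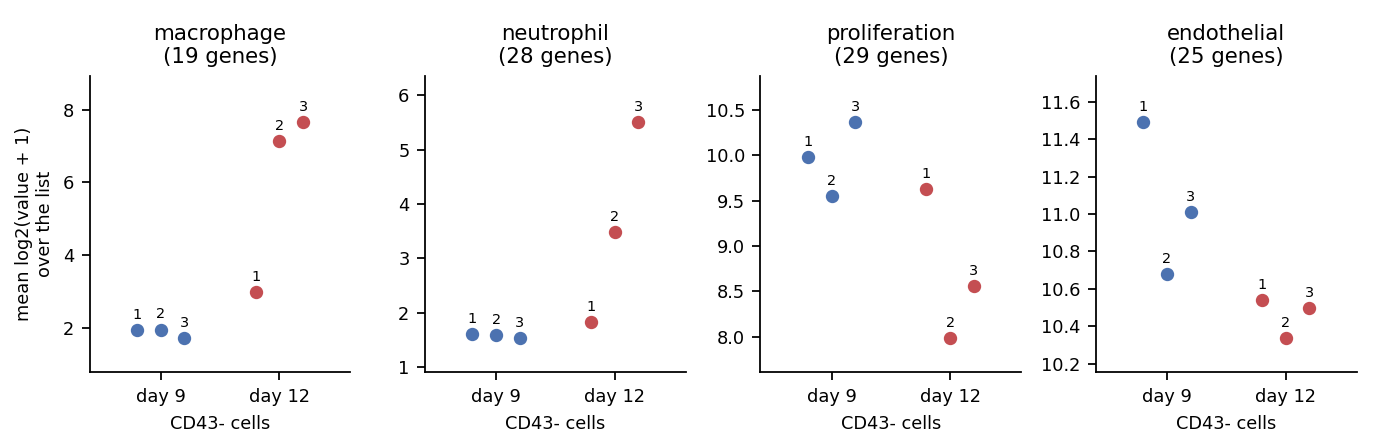
Mean log2(value + 1) over 4 gene lists in each CD43- sample, with the replicate number above each point and a separate vertical axis, not starting at 0, for each list. The macrophage and neutrophil lists are highest in day 12 replicates 2 and 3, and the proliferation list is highest among day 12 samples in replicate 1.

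The day 12 replicate with the fewest detected blood genes was also the one with the most RNA of dividing cells. All 29 proliferation genes had a lower mean on day 12, with a median change of -1.13, and none passed both criteria of the limma test (22 had an unadjusted p below 0.05 and 3 an adjusted p below 0.05). Day 12 replicate 1 was the highest of its group in 29 of 29 genes. MKI67, the marker of cycling cells, had values of 3484, 2236 and 3854 on day 9 and of 3484, 1406 and 1569 on day 12, with overlap between days. MCM2, a subunit of the helicase that opens replication origins, had values of 2380, 1415 and 2747 and then of 1140, 356 and 572, without overlap (change -1.77, adjusted p = 0.044, under the 4-fold limit). The median change of the same list in the CD43+ cells was -0.92. MKI67 and MCM2, like the other genes named below from lists in which no gene was called, were chosen after their values were seen.

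Replicate 1 was likewise the highest of the day 12 samples in 6 of 6 pluripotency genes, 9 of 10 neuronal genes and 7 of 10 epithelial genes, and none of these genes was called by limma, while 1 pluripotency and 1 epithelial gene had an unadjusted p below 0.05. The part of these differences between replicates in the changes from day 9 was not tested.

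The blood-enriched class as a whole did not set the rises apart from the falls. It held 96 of the 446 rises (21.5%) and 44 of the 210 falls (21.0%), against 9.49% of all genes tested, and its median change was -0.03. Without day 12 replicate 1 it held 37.0% of the rises, and without day 9 replicates 1 or 3 it held 12.7% or 14.1%. The first of these fits could not test rises with all day 9 values below 10, while the other fits could. These shares therefore mix the filter with the replicate left out.

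Most of the rises were shared with the CD43+ cells, in a comparison that has no sample in common with this one. Of the 446 genes, 271 (60.8%) were also called higher on day 12 in the CD43+ cells (8.66% of 16866 genes tested there), a class that made up 5.59% of the genes tested, and these 271 were 29.3% of the 924 CD43+ rises that could be tested in CD43- cells. Blood-enriched genes were 73 of the 271 and genes with clone-based or LINC names 121. Of the 210 falls, 75 (35.7%) were also called lower in CD43+ cells (6.14% of the genes tested there), against 5.05% of the genes tested. Without day 12 replicate 1 the shared part of the rises was 47.0%, in a fit that could not test rises with all day 9 values below 10.

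Among the highest shared rises were non-coding and repeat-related transcripts. MIR663AHG, a long non-coding RNA hosting a microRNA, rose from 2, 0 and 2 to 180, 314 and 445 in CD43- cells (7.14 ± 0.58, adjusted p = 0.0023), stood at 220, 300 and 544 in day 12 CD43+ cells, and was at 0 in all 3 day 16 CD43-CD45- samples. NRSN1, which encodes a neuronal vesicle protein, rose from 1, 0 and 0 to 121, 346 and 108 (7.05, adjusted p = 0.0023) and stood at 566, 237 and 446 in day 12 CD43+ cells. CA5A, a mitochondrial carbonic anhydrase, rose from 1, 2 and 0 to 172, 118 and 130 (6.26, adjusted p = 0.0023) and stood at 228, 167 and 124 in CD43+ cells. In 328 of the 446 rises the mean of the day 16 CD43-CD45- cells lay nearer, on the log2 scale, to the day 9 than to the day 12 mean of the CD43- cells, with the gate unlike that of days 9 and 12. The rises were picked by their day 9 and day 12 values, and the share over all tested genes was not computed. No return to day 9 levels is therefore read from this count. Features of the day 12 libraries and of day 12 cells cannot be told apart in genes that moved alike in both populations.

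Genes with clone-based or LINC names were 8.78% of those tested but 184 (41.3%) of the rises and 57 (27.1%) of the falls, and protein-coding genes were 88.0% of those tested, 52.5% of the rises and 69.5% of the falls. Without clone-based and LINC names, 374 genes were called. The MTRNR2L genes, nuclear copies of the mitochondrial 16S ribosomal RNA, were called higher in 5 of 8 cases in CD43- cells and in 4 of 8 in CD43+ cells (2.7% and 8.66% of all tested genes were). MTRNR2L4 rose from 2, 0 and 0 to 80, 239 and 224 (6.83), and MTRNR2L11, listed at 0 in all day 9 samples, stood at 20, 95 and 135 (adjusted p = 0.0039 and 0.0066). As these copies are near-identical to each other and to the mitochondrial gene, and no mitochondrial gene was in the table, their individual values are uncertain.

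**Figure D4:**
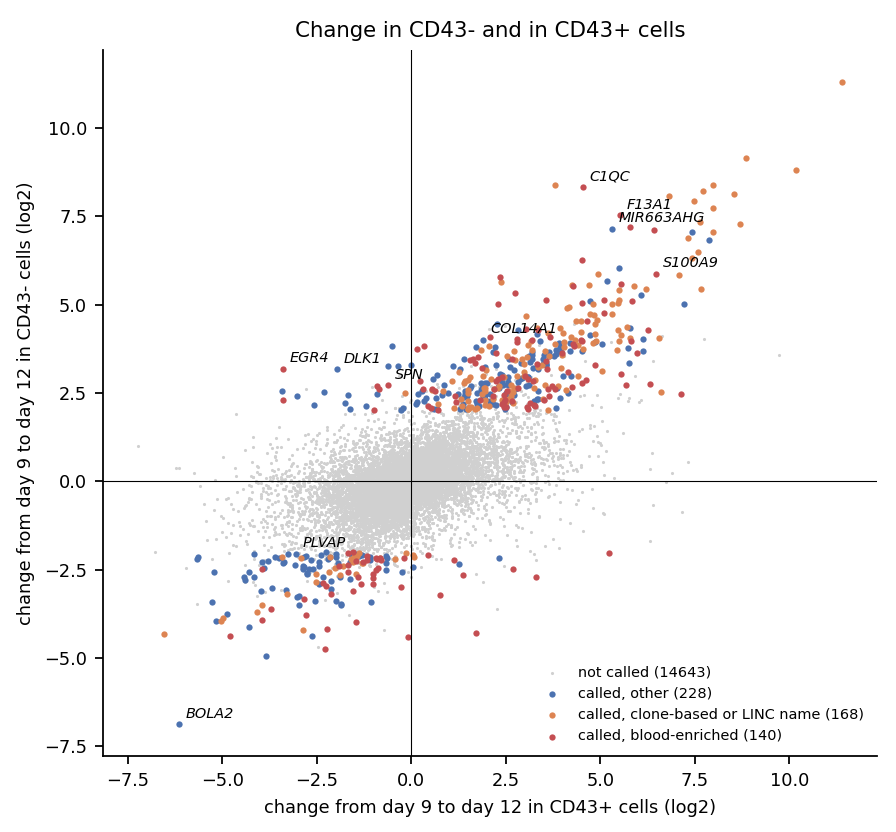
Change from day 9 to day 12 (difference of mean log2(value + 1)) in CD43- cells on the vertical axis and in CD43+ cells on the horizontal axis, for genes tested in both, with genes called in CD43- cells coloured by class and selected genes named. Most coloured points above 0 lie to the right of 0 as well, while DLK1, EGR4 and SPN lie to its left.

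To find changes that the CD43- cells did not share, the change in CD43- cells was compared with the change in CD43+ cells in 1 model over 12 samples. The difference passed adjusted p below 0.05 and 4-fold in 1365 of 18465 genes (7.39%), 690 higher (3.74%) and 675 lower (3.66%) in CD43- cells. In 1271 of these the change in the CD43- cells was not called itself, as in RELN, which encodes the matrix protein reelin and stood at 2302, 12848 and 3138 on day 9 and 10084, 10840 and 6702 on day 12 in CD43- cells while CD43+ cells went from 48056, 6589 and 10084 to 96, 89 and 106 (difference 8.23, limma adjusted p = 0.00030).

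Both the rise and the difference were called for 49 genes, 20 of them over 4-fold higher in CD43- than in CD43+ cells on day 6 or day 16 and 12 blood-enriched. Both the fall and the difference were called for 34 genes. Genes named below that are neither called members of a list, markers nor among the largest changes were chosen after their values were seen.

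DLK1 was the most abundant rise of this kind. It encodes a Notch-related membrane and secreted protein that is high in fetal stroma and is expressed from the paternal copy, and its values were 1580, 4114 and 2774 on day 9 and 18763, 18763 and 37178 on day 12 (3.17 ± 0.41, limma adjusted p = 0.0086). The CD43+ cells went from 8504, 9722 and 8504 to 1300, 3062 and 2865, and the difference between the changes was 5.15 ± 0.55 (adjusted p = 0.00016). The mean of the day 16 cells, sorted as CD43-CD45-, was 22568 ± 6582 (SD, n = 3). The groups did not overlap in either population and went in opposite directions.

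DLK1 lies on chromosome 14 (100725705 to 100738224, GRCh38), in an imprinted cluster in which neighbours were called as well. MEG3, the long non-coding RNA of the cluster expressed from the maternal copy (100779410 to 100861031), rose from 129, 286 and 497 to 2255, 3738 and 6052 (3.81, adjusted p = 0.011). RTL1, a retrotransposon-derived gene expressed from the paternal copy (100880655 to 100884847), rose from 14, 30 and 41 to 169, 141 and 482 (3.07, adjusted p = 0.023), and BEGAIN (100537147 to 100587413) from 28, 56 and 56 to 154, 152 and 456 (2.28, adjusted p = 0.035). The difference from CD43+ cells was called for RTL1 (adjusted p = 0.017) and not for MEG3 or BEGAIN (adjusted p = 0.081 and 0.040, the latter under 4-fold). Of other imprinted genes looked up, IGF2, H19 and PEG3 were not called (adjusted p = 0.36, 0.15 and 0.87).

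The next 4 genes rose in CD43- cells, and the difference from CD43+ cells was called for OGN alone among them. COL14A1, a collagen that binds the surface of collagen fibrils, rose from 394, 1052 and 1185 to 9501, 8281 and 25876 (limma adjusted p = 0.010). LAMA2, a laminin chain of muscle and mesenchymal basement membrane, rose from 613, 202 and 976 to 2981, 5316 and 5706 (3.18, adjusted p = 0.019), and MGP, an inhibitor of matrix calcification, from 38, 247 and 116 to 1197, 3945 and 2488 (4.45, adjusted p = 0.015). OGN, the small matrix proteoglycan osteoglycin, rose from 19, 17 and 50 to 394, 128 and 312 (3.25, adjusted p = 0.019), and its difference from CD43+ cells was 3.86 (adjusted p = 0.0056). The difference was not called for COL14A1, LAMA2 or MGP (adjusted p = 0.072, 0.081 and 0.11), and in CD43+ cells the changes of COL14A1 and MGP were 1.91 and 2.25. In all 4 genes the lowest day 12 value lay above the highest day 9 value, as in all 446 called rises and in 16.1% of all tested genes. Day 12 replicate 1 was within 4-fold of the other 2 replicates in each.

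The mesenchymal matrix list, which holds fibrillar collagens and fibronectin, had no call by limma among 24 tested genes, with 6 at an unadjusted p below 0.05 and a median change of 0.28. Its member POSTN, periostin, went from 20424, 25870 and 12848 to 18772, 22842 and 20424 (change 0.12, adjusted p = 0.80), and COL3A1 was at the ceiling in all 6 samples. IGFBP3, the main binding protein of insulin-like growth factors, rose from 7780, 13327 and 11512 to 48061, 48061 and 90700 (2.49, adjusted p = 0.010) and thereby reached that ceiling in replicate 3.

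Secreted signals and their regulators held further rises. LIF, a cytokine of the interleukin 6 family, rose from 92, 115 and 222 to 1383, 1134 and 2016 (3.45, limma adjusted p = 0.0042), with a like change of 3.48 in CD43+ cells, where its values reached 213, 248 and 374. IL6 rose from 13, 6 and 4 to 24, 50 and 118 (2.76, adjusted p = 0.043) and was at 2 or below in all CD43+ samples. These were the 2 calls among 15 tested inflammatory cytokine and chemokine genes (2.7% of all tested genes were called higher). In day 12 replicate 3, 21 of the 22 genes in the list were highest. SEMA3E, a repulsive guidance cue for axons and vessels, rose from 49, 172 and 44 to 348, 902 and 318 (2.67, adjusted p = 0.037). It was the 1 call among 22 axon guidance genes, where 2.7% of all tested genes were called higher.

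Of 13 tested cytokine and niche ligand genes, DLK1 was the 1 called (3.97% of all tested genes were), 5 had an unadjusted p below 0.05 and the median change was -0.05. KITLG, which encodes stem cell factor, had values of 589, 364 and 390 and then of 473, 186 and 492 (limma adjusted p = 0.62). CXCL12, the chemokine that retains blood progenitors, had values of 946, 526 and 1327 and then of 1410, 369 and 1026 (adjusted p = 0.91). VEGFA, of the hypoxia list, had values of 1865, 3084 and 1872 and then of 4476, 6697 and 6818 (change 1.42, adjusted p = 0.021, under the 4-fold limit).

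Of 18 tested genes of secreted endoderm products, 15 had a higher mean on day 12, 3 were called higher (2.7% of all tested genes were) and none lower, and the median change was 1.23 against -0.07 over all genes. AFP, the alpha-fetoprotein of yolk sac and fetal liver, rose from 1228, 347 and 116 to 3490, 9499 and 2522 (3.57 ± 0.85, adjusted p = 0.041), TF, transferrin, from 104, 30 and 30 to 208, 356 and 204 (2.41, adjusted p = 0.034), and SERPINA1, alpha-1 antitrypsin, from 205, 70 and 52 to 448, 671 and 334 (2.34, adjusted p = 0.035). The AFP groups did not overlap, but on the log2 scale the day 9 values were spread more widely than the distance from the highest of them to the lowest day 12 value. ALB, albumin, a later product of liver, stood at 7, 13 and 8 on day 12 against 20, 12 and 38 on day 9 (adjusted p = 0.18).

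Of the muscle genes, 1 of smooth muscle was called higher and 3 of cardiac muscle lower. DES, desmin, the intermediate filament of muscle and pericytes, rose from 304, 634 and 519 to 1370, 2002 and 3684 (2.22 ± 0.40, adjusted p = 0.022), while the change in CD43+ cells was -1.77 and the difference 3.98 (adjusted p = 0.00070). It was the 1 call among 18 contractile smooth muscle and pericyte genes (3.97% of all tested genes were called). ACTA2, smooth muscle actin, went from 4148, 3890 and 9230 to 4370, 1392 and 2974 without passing the test (adjusted p = 0.19). Of 18 cardiac muscle genes, 3 were called lower (1.27% of all tested genes were) and none higher, and the median change was -0.27. MYH6, the atrial myosin heavy chain, fell from 22, 52 and 76 to 0, 1 and 8, MYH7, its ventricular counterpart, from 28, 12 and 36 to 0, 0 and 1, and MYL7, an atrial light chain, from 141, 210 and 174 to 71, 25 and 13 (adjusted p = 0.030, 0.0095 and 0.037). TNNT2, cardiac troponin T, was not called, at 432, 848 and 588 on day 9 and 600, 751 and 418 on day 12 (adjusted p = 0.90). MYH6 and MYH7 are close paralogues that share sequence, and both entered the test only through their day 9 values. The count of 3 is therefore no measure of a fall of cardiac muscle genes as a group.

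Of 25 endothelial genes tested, 20 had a lower mean on day 12, 15 had an unadjusted p below 0.05 and the median change was -0.67. PLVAP, a component of the diaphragms of fenestrated vessels, fell from 22758, 10059 and 17284 to 5173, 3436 and 3051 (-2.06 ± 0.33, limma adjusted p = 0.016). CD34, a sialomucin of endothelium and progenitors, had values of 8083, 4194 and 6070 and then of 3400, 2980 and 2204 (-1.07, adjusted p = 0.048), and TEK, the angiopoietin receptor, of 6912, 3716 and 4504 and then of 1690, 3371 and 2804 (-0.95, adjusted p = 0.090). LYVE1, a hyaluronan receptor of lymphatic and some embryonic vessels and of macrophages, went the other way, from 286, 288 and 240 to 428, 728 and 846 (1.24, adjusted p = 0.033). In CD43+ cells the changes of KDR and TEK were -3.16 and -3.27, and the differences of 2.48 and 2.32 between the populations were called (adjusted p = 0.0063 and 0.0098).

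**Figure D5:**
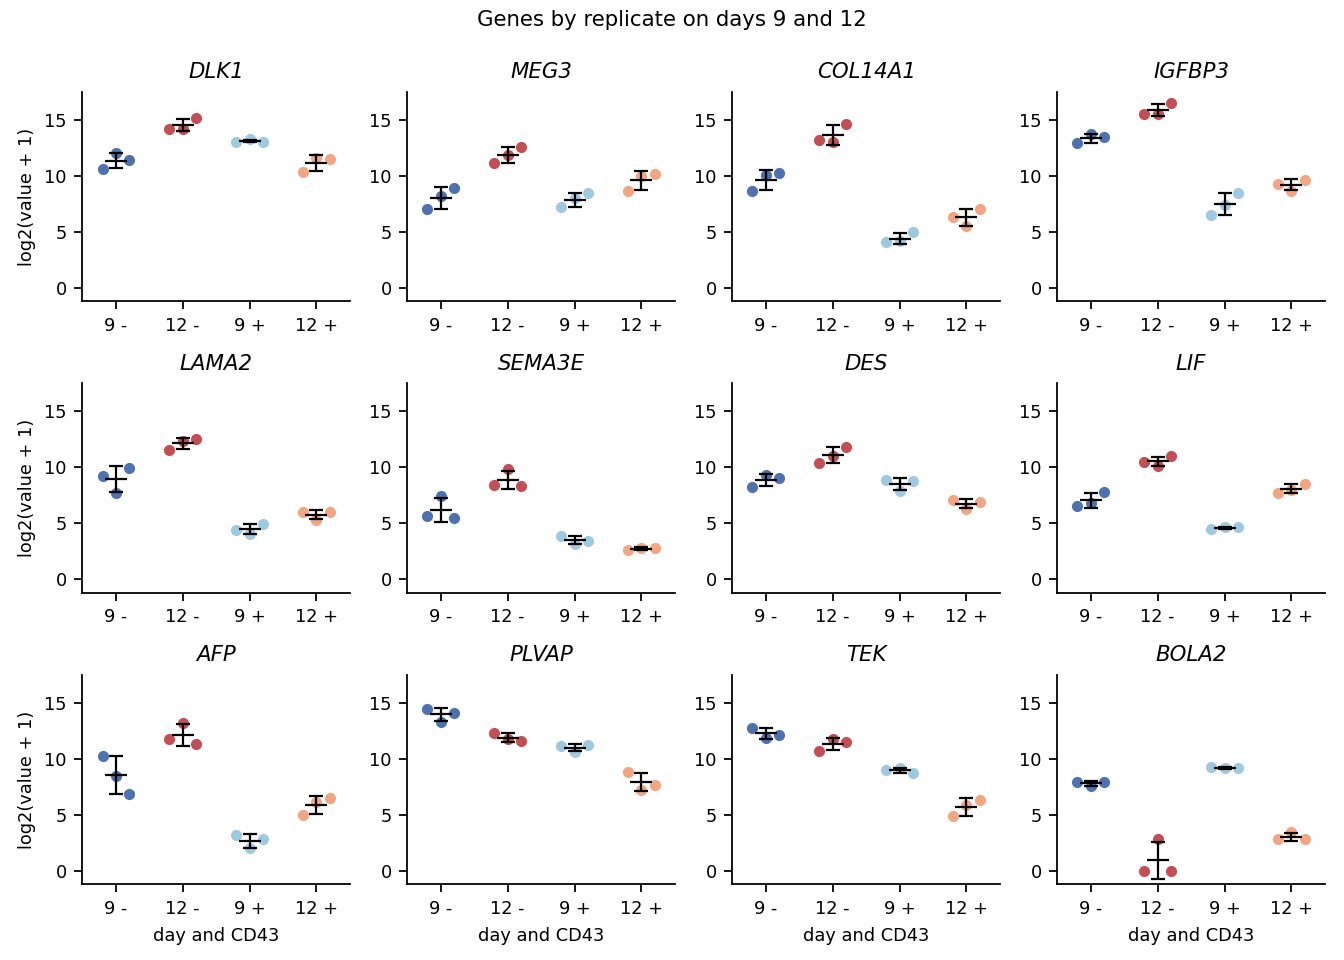
Values of 12 genes on the log2(value + 1) scale for each replicate (points), with the mean and SD of 3 replicates (black), on days 9 and 12 in CD43- (-) and CD43+ (+) cells. The 2 CD43- groups of DLK1, COL14A1, LIF and PLVAP do not overlap, and DLK1 and DES go down in CD43+ cells while they go up in CD43- cells.

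In 3 further lists the changes were mostly of 1 sign but under 4-fold. All 16 immediate early genes had a higher mean on day 12 (median change 0.88, 8 with an unadjusted and 4 with an adjusted p of limma below 0.05, none called), with KLF2, a flow-responsive transcription factor, going from 1452, 1439 and 1460 to 3603, 3890 and 6460 (1.63, adjusted p = 0.010). Of 18 cholesterol synthesis genes, 17 had a lower mean (median change -0.70, 11 and 8 below 0.05, none called), with MVD, a mevalonate pathway enzyme, going from 2496, 2508 and 3184 to 1374, 1226 and 1200 (-1.10, adjusted p = 0.0093). Of 17 HOXA and HOXB genes, 15 had a lower mean (median change -0.52, 2 with an unadjusted p below 0.05, none called).

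Among the deepest falls outside clone-based and LINC names were BOLA2, SOST and MARCHF4. BOLA2, which encodes an iron-sulphur cluster protein, fell from 243, 188 and 245 to 0, 6 and 0 (-6.88, limma adjusted p = 0.0058) and from 604, 562 and 562 to 6, 10 and 6 in CD43+ cells. Its near-identical copy BOLA2B remained at 44, 149 and 76 on day 12, so the value of either copy is uncertain. SOST, the Wnt inhibitor sclerostin, fell from 784, 112 and 398 to 6, 13 and 12 (-4.92, adjusted p = 0.012). MARCHF4, a membrane-bound ubiquitin ligase that the table lists under a date-like name, fell from 492, 60 and 518 to 26, 3 and 4 (-4.94, adjusted p = 0.030).

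The remaining large falls were ZDHHC22, CALCA, SIX3, ABHD16B, PLA2G3, C12orf50 and the readthrough gene POC1B-GALNT4, whose reads overlap those of its 2 component genes. CALCA, the precursor of calcitonin, went from 42, 24 and 146 to 3, 0 and 2, and SIX3, a transcription factor of the forebrain, from 32, 10 and 58 to 1, 0 and 0 (adjusted p = 0.019 and 0.015). Both were at 4 or below in every CD43+ sample of days 9 and 12, and their changes differed between the populations (adjusted p = 0.029 and 0.0071). MMP10, a stromelysin, was the 1 call among 16 matrix protease genes and fell from 14, 28 and 12 to 3, 2 and 6 (-2.02, adjusted p = 0.0499). MMP10 entered the test only through its day 9 values. MX2, an interferon-induced GTPase, was the 1 call among 21 interferon response genes and rose from 30, 24 and 40 to 136, 188 and 192 (2.43, adjusted p = 0.0097), with a change of 2.46 in CD43+ cells. Over all tested genes, 1.27% were called lower and 2.7% higher.

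The largest differences between the changes were of genes that moved in the CD43+ cells. On the positive side, after RELN, SLC30A10, GLP1R and ST6GALNAC1 fell in CD43+ cells and were at 14 or below in all 6 CD43- samples, with GLP1R, the receptor of glucagon-like peptide 1, listed at 0 in each of them. EGR4, an early growth response transcription factor, rose from 4, 12 and 10 to 34, 69 and 215 in CD43- cells and fell from 52, 206 and 192 to 6, 17 and 13 in CD43+ cells (difference 6.59 ± 1.03, limma adjusted p = 0.0014). On the negative side stood neutrophil products. DEFA1, DEFA1B and DEFA3, near-identical defensin genes among which reads may have been split, stood at 0, 0 and 18 to 20 in day 12 CD43- replicates 1, 2 and 3 and between 2788 and 6002 in the CD43+ cells. S100A12 stood at 0, 0 and 6 against 1293 to 2220, and ELANE, neutrophil elastase, at 1, 2 and 11 against 1856 to 3605. In replicate 3, then, these genes were near 0 while MPO reached 4608 and LYZ 1089.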

How the data were processed

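RNA of H1 cells was profiled in 34 samples, of which the 3 day 12 and 3 day 9 CD43- samples were compared. The authors aligned reads (Bowtie2 with RSEM) to Ensembl release 81 (hg38, with STAR 2.7 and bcl2fastq also named in the submitters' processing notes) and normalised them with EDASeq, full method. The deposited values are a score, GC-normalised tag counts rounded to whole numbers with 1 distribution for all samples, so that the original counts and the depth cannot be recovered and no count model was used.

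On log2(value + 1), limma 3.58.1 (R 4.3.3, moderated variances with a mean trend, Benjamini-Hochberg adjustment) was fitted to the 6 samples, or 12 for the difference from CD43+ cells, over genes reaching 10 in 3 samples. The thresholds, adjusted p below 0.05 and over 4-fold, are those of the study's own comparisons. The scripts were tested on simulated data. Groups came from the labels.

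Same-numbered replicates were not treated as pairs: their deviations from the group means correlated at 0.209, 0.475 and 0.051. The genes named were up to 4 called genes of each of 29 gene lists, cell type markers, the 10 largest called rises and falls with no overlap, the 10 largest SDs on day 12 and the 5 largest differences from CD43+ cells in each direction, without clone-based or LINC names, and 2 genes that met these rules are not reported here. Other genes named, among them those of the DLK1 cluster, COL14A1, LAMA2, MGP, IGFBP3 and the MTRNR2L genes, were chosen after their values were seen. The members and lists were chosen with earlier results of these data known. Alternatives covered the pseudocount, the filter, scaling, the replicate block, variance models, all 33 replicated samples in 1 fit and each replicate left out. The samples were sequenced at 2 companies, and a sample's company was not given in the sources used here.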

Additional observations from a re-analysis of the deposited data

Results flagged for a closer look

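In 27 of the named genes the change from day 9 to day 12 differed between the CD43- and the CD43+ cells by limma's test of that difference (adjusted p below 0.05 and over 4-fold, n = 3 a group). The values are differences of log2 changes, CD43- minus CD43+, and depend on the added 1 where a group was at 0. In DLK1 (5.15), EGR4 (6.59), TF (5.43), DES (3.98), SPN (3.33), RAB27B (3.60) and SEMA3E (3.45) the CD43- change was called higher.

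In RELN (8.23), SLC30A10 (7.15), GLP1R (6.65), ST6GALNAC1 (6.55), KDR (2.48), ITGA2B (2.46), TEK (2.32) and ALAS2 (2.06) the CD43- change was not called or not tested, and the CD43+ values were lower on day 12 than on day 9. In CALCA (-4.12), SIX3 (-4.80), ABHD16B (-4.32) and ZDHHC22 (-3.03) the CD43- change was called lower. In DEFA3 (-10.54), DEFA1B (-10.38), DEFA1 (-9.80), S100A12 (-9.16), GLT1D1 (-8.04), ELANE (-7.64), EPX (-4.57) and AZU1 (-3.03) the CD43+ values were higher on day 12 and the CD43- change was not called or not tested.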

How the results depend on the processing

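Against 656 calls (446 higher), there were 289 with a pseudocount of 10, 164 with a filter of 100 in 3 samples, 374 without clone-based and LINC names, 1254 at 2-fold and 1450 in 1 fit of all 33 replicated samples, and 1 from day 12 replicate 1 alone, its spread taken from day 9. The counts under other alternatives were 603 (pseudocount 0.1), 979 (no filter), 656 (quantile), 650 (median of ratios, 465 higher), 646 (robust) and 938 (array weights, 558 higher). Leaving out 1 replicate gave 2 to 1788 calls (2 to 651 in the fit of the 2 populations, 1334 to 1788 in the fit of all), and the cause was not tested. The split turned without day 12 replicate 1 (281 higher, 370 lower), but not in the fit of all without it (1006 and 782). It was 166 and 12 without day 9 replicate 1 and 185 and 14 without day 9 replicate 3. In the fit of the 2 populations the filter shifts these splits. Of the 656 calls, 405 could be tested without a day 12 replicate, which removes rises, and 545 without a day 9 replicate, which removes falls. The replicate block gave 806 calls (506 higher), 654 of the 656 among them, and 1387 for the difference from CD43+ cells, and not every day 12 sample correlated best with its own number.

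The 1365 calls of the difference from CD43+ cells became 891 with the filter of 100 and 2447 at 2-fold, and 1038 to 1448 with 1 replicate left out. The median day 12 SD of 0.336 was 0.303 with a pseudocount of 10, 0.270 with the filter of 100, 0.381 without a filter and 0.253 to 0.300 over pairs. The blood-enriched share of rises, 21.5%, was 30.5% with the class cut at 2-fold, 6.95% with the day 6 class and 12.7% to 37.0% with 1 replicate left out. The share of rises also called in CD43+ cells, 60.8%, was 51.5% with the filter of 100 and 47.0% to 69.3% with 1 replicate left out. The alternatives with all samples in 1 fit and a replicate left out, with day 12 replicate 1 alone, and of this last share were chosen after seeing the data. The shares were not computed without day 12 replicates 2 or 3, which left 8 and 1 rises. The fits with 1 replicate left out tested unlike sets of genes through the filter, so their shares are not comparable with each other.

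Of 69 named genes tested, 9 lost their call with a pseudocount of 10, 2 with the median of ratios and 1 with the block. Of those still tested, 3 to 27 lost it with 1 replicate left out. Signs reversed in genes that were not called. Over the fits that left out 1 replicate, PLEK lay between -0.19 and 3.41, CORO1A between -0.13 and 1.13, PF4 between -1.74 and 1.81, PECAM1 between -0.10 and 0.47, POSTN between -0.16 and 0.35 and TNNT2 between -0.30 and 0.19. PF4 was at 0.57 with a pseudocount of 10 and at 0.031 with the median of ratios, and TNNT2 at 0.00040 with the latter. Without a known depth, no counting error can be given for values near 0.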

Other observations

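Among the 49 genes that rose in CD43- cells and whose change differed from that in CD43+ cells were several of surface-lining and epithelial cells, chosen after their values were seen. MUC16, a membrane mucin of mesothelium and epithelia, went from 20, 4 and 2 on day 9 to 566, 312 and 166 on day 12 (log2 change 5.51). CALB2, the calcium-binding protein calretinin, went from 35, 26 and 12 to 216, 140 and 204 (2.99), ITGB6, an epithelial integrin, from 48, 30 and 50 to 506, 256 and 281 (2.96), and LAMA3, an epithelial laminin chain, from 32, 16 and 24 to 153, 182 and 78 (2.44). All of these were at 18 or below in every CD43+ sample of days 9 and 12. The 10 genes of the epithelial list, which holds none of them, had no call and a median change of 0.07.

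ITIH5, an inter-alpha-trypsin inhibitor chain that binds hyaluronan, was among the rises with the closest replicates, from 82, 100 and 80 to 663, 606 and 686 (2.89, limma adjusted p = 0.0012), and was still called without day 12 replicate 2. FRK, a tyrosine kinase of epithelia, went from 74, 50 and 65 to 702, 612 and 758 (3.45, adjusted p = 0.0012), also still called without that replicate. Neither ITIH5 nor FRK was called without day 12 replicate 3. MTRNR2L10, at 32, 22 and 46 on day 9 and 1467, 1510 and 1726 on day 12, was called in every fit that left out 1 day 12 replicate.

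On the other side, TMEM100, an endothelial target of BMP signalling, went from 1780, 476 and 1862 to 84, 72 and 112 (-3.71), CFC1, a Nodal co-receptor, from 124, 54 and 80 to 10, 3 and 3 (-3.88), and TNFRSF11A, the receptor RANK, from 630, 64 and 428 to 18, 8 and 13 (-4.28). Each of these also differed from its change in CD43+ cells by limma's test.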
